A study of Homo sapiens and Mus musculus with 22 samples.

Results

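The sorted PD-L1 low fraction of H69M was compared with unsorted H69M to find which genes the sorted cells gained or lost against the culture as a whole, stress responses among them. H69M is a derivative of NCI-H69 (H69), a human small cell lung carcinoma (SCLC) line, and small cell lung carcinoma is an aggressive tumour of neuroendocrine type. PD-L1, encoded by CD274, is a surface ligand that restrains T cells. The comparison used 6 of the 22 libraries of the series, all 3 labelled as the PD-L1 low or negative sort of H69M and all 3 labelled H69M with no sort. The labels call the sorted cells low or negative for MHC class I, the surface complex that shows peptides to T cells, and unsorted H69M high for it. Libraries of the PD-L1 high fraction of H69M and of H69, 3 each, shared the fit, and their values are given beside some of the results. The labels call the PD-L1 high fraction high for MHC class I and H69, which was not sorted, low or negative for it. No treatment is labelled for any of the 4 groups, all of which descend from 1 line. The sources used here do not say whether unsorted cells were stained or passed through a sorter, so handling during the sort and the choice of cells by PD-L1 cannot be told apart in this comparison. Nor is it stated that the 3 libraries of a group came from different cultures. The p-values therefore reflect library-to-library spread, part or all of which could be technical.

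Cells that lack amino acids, or whose endoplasmic reticulum (ER) fills with unfolded protein, slow most translation through phosphorylation of the initiation factor eIF2 while translating more of the transcription factor ATF4. This pathway is the integrated stress response. ATF4 and its partners of the C/EBP family then induce genes that import and make amino acids, charge tRNAs and limit growth. ER chaperones are induced mainly by the separate factors ATF6 and XBP1, and cytosolic heat shock proteins by HSF1. Each of these branches, and responses to low oxygen, oxidants and DNA damage, has its own set of target genes and was therefore counted on its own.

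Total counts ran from 13104998 to 21499865 in the PD-L1 low libraries and from 19905007 to 25806038 in the unsorted libraries. Levels are CPM, the count scaled to library size with TMM factors, and fold changes are log2 values of PD-L1 low minus unsorted H69M ± SE from a fit across all genes. Means are given ± SD over the 3 libraries of a group. A gene is said to have risen or fallen where its adjusted p was under 0.05 over all tested genes. CD274 was at 0.222, 0.140 and 0.434 CPM in the PD-L1 low libraries, against 4.85, 3.73 and 3.48 CPM in unsorted H69M, which checks the sort and is no finding. PD-L1 low replicate 3 stood apart from replicates 1 and 2 in having more RNA of the non-neuroendocrine type. The summed level of 37 mesenchymal and non-neuroendocrine genes was 829, 827 and 1043 CPM in PD-L1 low replicates 1, 2 and 3, and 6827 to 7034 CPM in unsorted H69M, with 754 to 851 CPM in H69. Values that this library decides are given with and without it. The neuroendocrine markers CHGA, SYP, INSM1, NCAM1 and GRP were detected in all libraries of both groups. Of 15 leukocyte markers, 4 reached the level needed for a test and 0 rose, and their summed level was 2.51 to 3.25 CPM in the PD-L1 low fraction and 4.98 to 5.05 CPM in unsorted H69M. Of these, 6 had no count in the PD-L1 low fraction and 9 had none in unsorted H69M, with the T cell genes CD3D and CD3E and the B cell gene MS4A1 at 0 in both. In RNA of a whole sample, fewer cells of a type and less RNA per cell cannot be told apart.

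Of 15445 genes tested, 10134 (65.6%) differed between the PD-L1 low fraction and unsorted H69M. In the PD-L1 low cells 5034 genes (32.6%) were higher and 5100 (33.0%) lower, and the median log2 fold change over all tested genes was 0.01. At least a 2-fold difference was found for 1309 genes that rose (8.48%) and 1224 that fell (7.92%). The libraries of the groups did not overlap in 10756 genes (69.6%). A count within a gene list below is therefore to be read against a background in which about 1 gene in 3 passed in each direction.

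Among the more abundant genes (average level at least the median of tested genes), the 10 largest rises included 7 genes on the list of ATF4 targets, namely INHBE, TRIB3, PCK2, ATF5, DDIT4, ASNS and ATF3. The others were H19, a maternally expressed long non-coding RNA, BHLHE40, a clock and hypoxia-linked repressor, and ASS1, an enzyme of arginine synthesis. H19 was at 293, 182 and 267 CPM in PD-L1 low cells, against 21.2, 19.8 and 20.8 CPM in unsorted H69M (log2 fold change 3.59 ± 0.13, adjusted p = 8.15e-15). BHLHE40 was at 65.5, 59.5 and 52.7 CPM in PD-L1 low cells, against 5.84, 4.73 and 5.97 CPM in unsorted H69M (3.42 ± 0.10). ASS1 was at 152, 151 and 141 CPM in PD-L1 low cells, against 17.9, 18.3 and 17.7 CPM in unsorted H69M (3.05 ± 0.06). Only genes that passed the test and whose libraries did not overlap between the groups were ranked, for rises and falls alike. BHLHE40 and ASS1 were also above unsorted H69M in the PD-L1 high fraction (2.45 ± 0.11 for BHLHE40 and 2.44 ± 0.06 for ASS1), and BHLHE40 was at 38.2 ± 3.79 CPM in H69. The 10 largest falls were those of CNN1, CTGF, IGFBP3, ACTA2, CYR61, KLHL5, IL7R, IGFBP7, TAGLN and CALD1. CNN1, which encodes the actin-binding protein calponin, was at 0.177, 0.0465 and 1.74 CPM in PD-L1 low cells, against 57.4, 53.7 and 52.4 CPM in unsorted H69M. Its log2 fold change was -6.74 ± 0.26, or -8.84 without PD-L1 low replicate 3, the library that held most of its RNA in that group, and -6.12 without PD-L1 low replicate 2. Leaving out PD-L1 low replicate 3 also gave -8.07 for CTGF, a target of YAP (-6.71 with it), and -8.18 for ACTA2, smooth muscle actin (-6.36 with it). Without it IGFBP3 had -7.67 (-6.52 with it), KLHL5 -6.94 (-6.16), IL7R -7.41 (-6.01), IGFBP7 -6.60 (-5.95), TAGLN -6.86 (-5.91) and CALD1 -6.88 (-5.86).

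**Figure D1:**
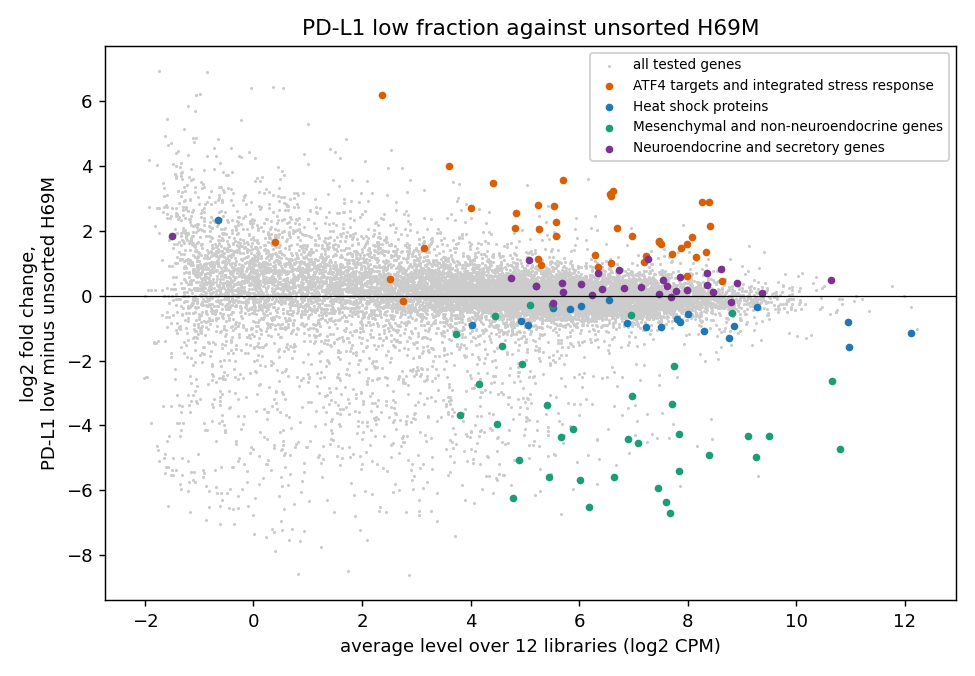
Each point is 1 of 15445 tested genes, placed by its average level over 12 libraries (log2 CPM, x axis) and its log2 fold change of PD-L1 low minus unsorted H69M (y axis), with members of 4 lists in colour. Nearly all coloured ATF4 targets lie above 0 at every level of expression, heat shock genes lie mostly below it and mesenchymal genes reach -6.71.

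Genes of the integrated stress response rose almost without exception. Of 43 genes listed, 42 were tested, and 41 rose, 0 fell and CTH did not pass the test. Their median log2 fold change was 1.75, against 0.01 over all tested genes, and 36 of them rose at least 2-fold. RAB39B entered the list because it had stood out in these libraries, and without it 40 of 41 rose. The summed level of the list was 9940.1 to 10395 CPM in the PD-L1 low fraction and 3089 to 3117 CPM in unsorted H69M. It was 3499 to 3855 CPM in the PD-L1 high fraction and 4167 to 4267 CPM in H69. VEGFA also stands on the list of hypoxia-induced genes and KLHL24 on that of FOXO sensors.

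The transcription factors of the response rose to different degrees. ATF4 itself was at 449, 438 and 432 CPM in PD-L1 low cells, against 195, 191 and 191 CPM in unsorted H69M (log2 fold change 1.19 ± 0.05, adjusted p = 8.18e-14). ATF5, a related factor, was at 243, 217 and 242 CPM in PD-L1 low cells, against 28.05, 29.9 and 26.3 CPM in unsorted H69M (3.06 ± 0.07). ATF3, a stress-induced repressor, was at 110.2, 108 and 109 CPM in PD-L1 low cells, against 15.6, 15.4 and 15.8 CPM in unsorted H69M (2.81 ± 0.06). All 3 were apart in every library, with ATF4 showing the smallest ratio. DDIT3, which encodes the pro-apoptotic factor CHOP, rose by 1.83 ± 0.07, CEBPB by 2.08 ± 0.08 and CEBPG by 1.58 ± 0.07, the last 2 being C/EBP partners of ATF4.

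Secreted factors and feedback regulators of the response rose as well. INHBE, the inhibin beta E subunit, was at 155, 148 and 156 CPM in PD-L1 low cells, against 11.1, 15.5 and 12.4 CPM in unsorted H69M, 11.8-fold higher (log2 fold change 3.56 ± 0.09, adjusted p = 3.56e-17). FGF21, a stress hormone, was at 20.7, 18.6 and 19.02 CPM in PD-L1 low cells, against 0.315, 0.199 and 0.268 CPM in unsorted H69M (6.18 ± 0.17). GDF15, a secreted stress signal that reduces appetite, rose by 2.27 ± 0.10. CHAC1, which breaks down glutathione, was at 60.5, 58.4 and 64.6 CPM in PD-L1 low cells, against 5.30, 6.27 and 4.97 CPM in unsorted H69M (3.48 ± 0.11). DDIT4, an inhibitor of the growth kinase mTORC1 also known as REDD1, was at 1068, 1075 and 898 CPM in PD-L1 low cells, against 133, 131 and 142 CPM in unsorted H69M (2.90 ± 0.09, adjusted p = 6.95e-16). Its lowest PD-L1 low library was replicate 3. SESN2, another inhibitor of mTORC1, rose by 2.07 ± 0.06 and TRIB3, a pseudokinase that damps the response, by 3.23 ± 0.07. The phosphatase subunit PPP1R15A, also known as GADD34, which ends the translation block, rose less, by 0.94 ± 0.06, as did EIF4EBP1, a brake on cap-dependent translation, by 1.04 ± 0.06.

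Enzymes that make amino acids rose along the serine and asparagine routes. ASNS, asparagine synthetase, was at 818, 827 and 791 CPM in PD-L1 low cells, against 107, 113 and 109 CPM in unsorted H69M, 7.39-fold higher (log2 fold change 2.89 ± 0.06, adjusted p = 4.15e-18). The 3 enzymes of serine synthesis all rose: PHGDH by 1.68 ± 0.06, PSAT1 by 1.83 ± 0.07 and PSPH by 0.90 ± 0.07. Of the mitochondrial enzymes that take one-carbon units from serine, ALDH1L2 was at 38.3, 43.4 and 38.5 CPM in PD-L1 low cells, against 2.52, 2.29 and 2.68 CPM in unsorted H69M (3.995 ± 0.10), while MTHFD2 rose by 1.60 ± 0.06 and SHMT2 by 1.35 ± 0.05. PCK2, mitochondrial phosphoenolpyruvate carboxykinase, was at 257, 257 and 239.7 CPM in PD-L1 low cells, against 28.4, 28.4 and 28.5 CPM in unsorted H69M (3.14 ± 0.06). The transsulfuration enzymes differed: CBS rose by 1.22 ± 0.05, whereas CTH was at 6.18 ± 0.640 CPM in PD-L1 low cells and 6.85 ± 0.572 CPM in unsorted H69M (adjusted p = 0.289).

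Transporters of amino acids rose with them. SLC7A11, the cystine carrier, was at 82.6, 111 and 92.1 CPM in PD-L1 low cells, against 16.5, 12.1 and 13.2 CPM in unsorted H69M (2.77 ± 0.11). SLC7A5, which carries leucine and other large neutral amino acids, was at 715, 621 and 679 CPM in PD-L1 low cells, against 135, 163 and 152 CPM in unsorted H69M (2.16 ± 0.07). Its partner chain SLC3A2 rose by 1.28 ± 0.05 and the glutamine carrier SLC1A5 by 1.84 ± 0.06. The smallest rise of a called transporter was that of SLC38A2, at 0.46 ± 0.08. The plot by library holds no transporter. It shows INHBE, CHAC1, ASNS, DDIT4 and ATF4 of the same response, with the PD-L1 low libraries above the rest.

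**Figure D2:**
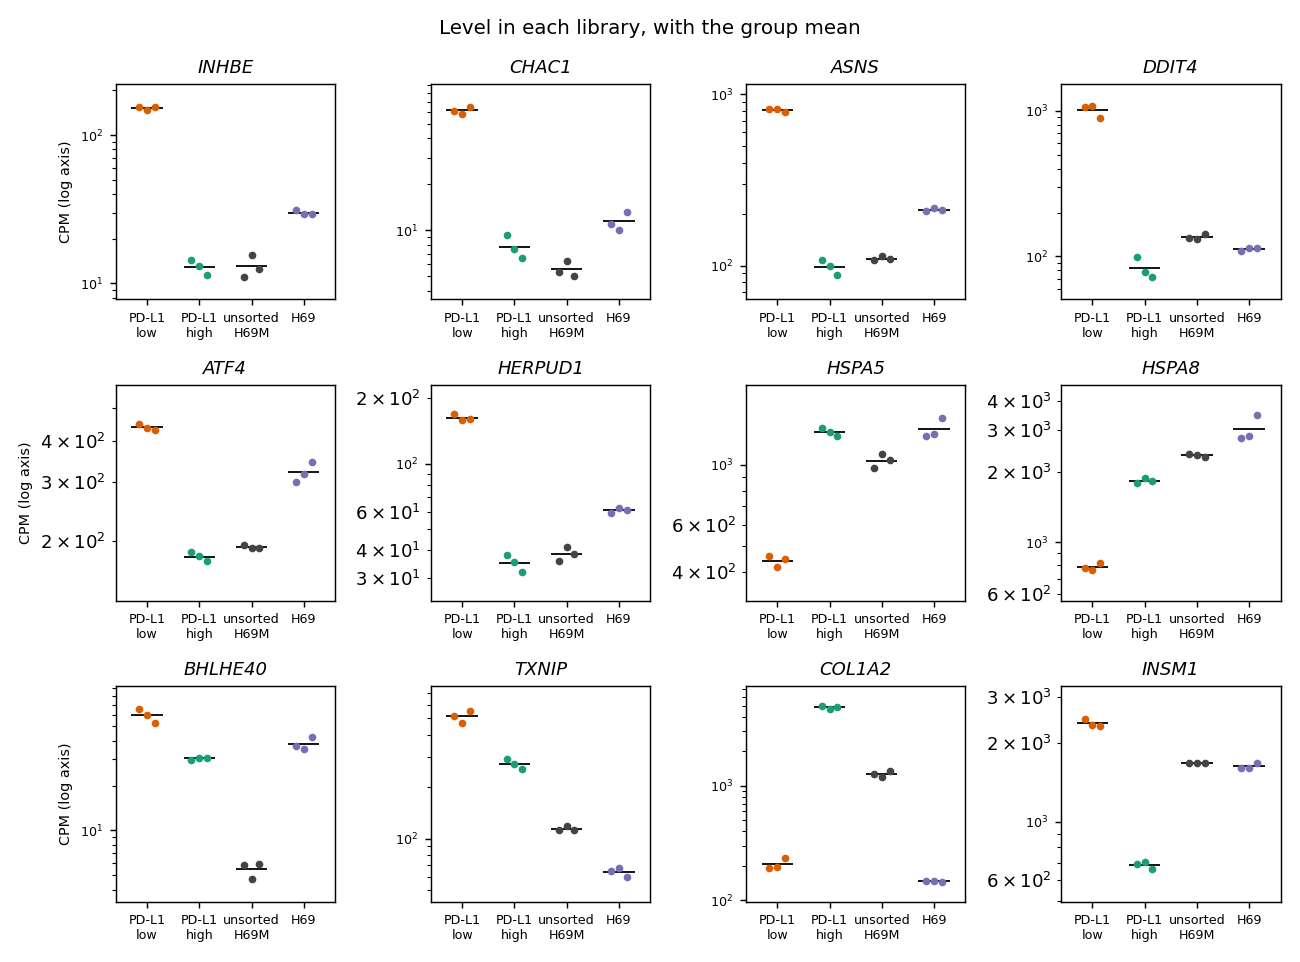
Level of 12 genes (CPM, log axis) in each of the 3 libraries of 4 groups, with a bar at the group mean. INHBE, CHAC1, ASNS, DDIT4, ATF4, HERPUD1, BHLHE40 and TXNIP are highest in the PD-L1 low fraction, HSPA5 and HSPA8 are lowest there, and COL1A2 and INSM1 part the PD-L1 low and PD-L1 high fractions with unsorted H69M between them.

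Promoter sequence is shown for genes that moved with their group and hold the element named for it, so that the element can be read. Windows of 250 bases before to 50 bases after the start were searched on both strands (RefSeq, GRCh38.p14, a build other than that of the counts). TGATGNAA is the core of the C/EBP-ATF response element to which ATF4 binds. It was found for 10 of the 32 listed genes of the integrated stress response that had a window (31.3%), against 3.62% of all 35116 windows. Here and for the elements below, a listed gene counted if any of its windows held the element. The share of all windows counts each window singly, so genes and windows are unlike units. The shares count list members whether or not they rose or fell here. A list of known targets can hold the element more often for that reason alone, so the shares are no result about these changes. FGF21, CHAC1 and ASNS are the genes with the largest rises among those 10. Each line runs from 250 bases before the start to 10 bases after it, 5′ to 3′ on the gene's strand, with the match in capitals. The windows are chr19:48755274-48755533 on the plus strand for FGF21, chr15:40953221-40953480 on the plus strand for CHAC1 and chr7:97872399-97872658 on the minus strand for ASNS.
FGF21: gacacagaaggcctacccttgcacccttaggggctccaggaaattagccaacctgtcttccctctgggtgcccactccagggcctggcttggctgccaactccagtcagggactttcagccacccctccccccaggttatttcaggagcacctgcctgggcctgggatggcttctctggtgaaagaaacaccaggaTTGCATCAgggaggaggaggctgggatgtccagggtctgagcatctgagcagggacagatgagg
CHAC1: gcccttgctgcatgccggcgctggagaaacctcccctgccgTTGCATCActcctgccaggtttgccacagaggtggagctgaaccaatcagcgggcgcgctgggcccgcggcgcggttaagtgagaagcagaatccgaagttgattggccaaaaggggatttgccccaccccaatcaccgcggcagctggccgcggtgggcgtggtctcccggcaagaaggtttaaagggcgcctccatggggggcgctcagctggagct
ASNS: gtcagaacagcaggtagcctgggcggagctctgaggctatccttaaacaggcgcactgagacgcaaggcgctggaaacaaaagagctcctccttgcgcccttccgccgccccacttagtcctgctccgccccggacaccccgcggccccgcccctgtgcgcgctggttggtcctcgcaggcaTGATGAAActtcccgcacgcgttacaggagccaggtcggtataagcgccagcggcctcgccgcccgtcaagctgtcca
The match lies 54 bases before the start in FGF21, 209 before it in CHAC1 and 68 before it in ASNS. A match is a description of the letters and does not show that ATF4 was bound.

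The PD-L1 high fraction, which was sorted too, was set beside the PD-L1 low fraction for the same genes. Both comparisons use the same 3 unsorted libraries. In PD-L1 high minus unsorted H69M, 21 of the 42 integrated stress response genes rose (background 37.8%) and 12 fell (background 32.6%), with a median log2 fold change of 0.09. INHBE had 3.56 ± 0.09 in PD-L1 low minus unsorted H69M and 0.01 ± 0.10 in PD-L1 high minus unsorted H69M (adjusted p = 0.937 for the PD-L1 high value). ASNS had 2.89 ± 0.06 in the PD-L1 low comparison and -0.15 ± 0.06 in the PD-L1 high one. DDIT4 had 2.90 ± 0.09 in the PD-L1 low comparison and -0.70 ± 0.09 in the PD-L1 high one. Some genes were above unsorted H69M in both sorted fractions. SLC1A5 had 1.84 ± 0.06 in the PD-L1 low and 1.79 ± 0.06 in the PD-L1 high comparison. VEGFA had 2.10 ± 0.07 in the PD-L1 low and 1.66 ± 0.07 in the PD-L1 high comparison, and SLC7A11 had 2.77 ± 0.11 in PD-L1 low and 1.72 ± 0.12 in PD-L1 high. NUPR1, a stress-linked chromatin protein, and JDP2, a repressor related to ATF3, had their larger value in the PD-L1 high comparison. JDP2 was at 5.09 ± 0.436 CPM in PD-L1 low cells and 13.99 ± 0.742 CPM in PD-L1 high cells, against 3.63 ± 0.780 CPM in unsorted H69M.

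**Figure D3:**
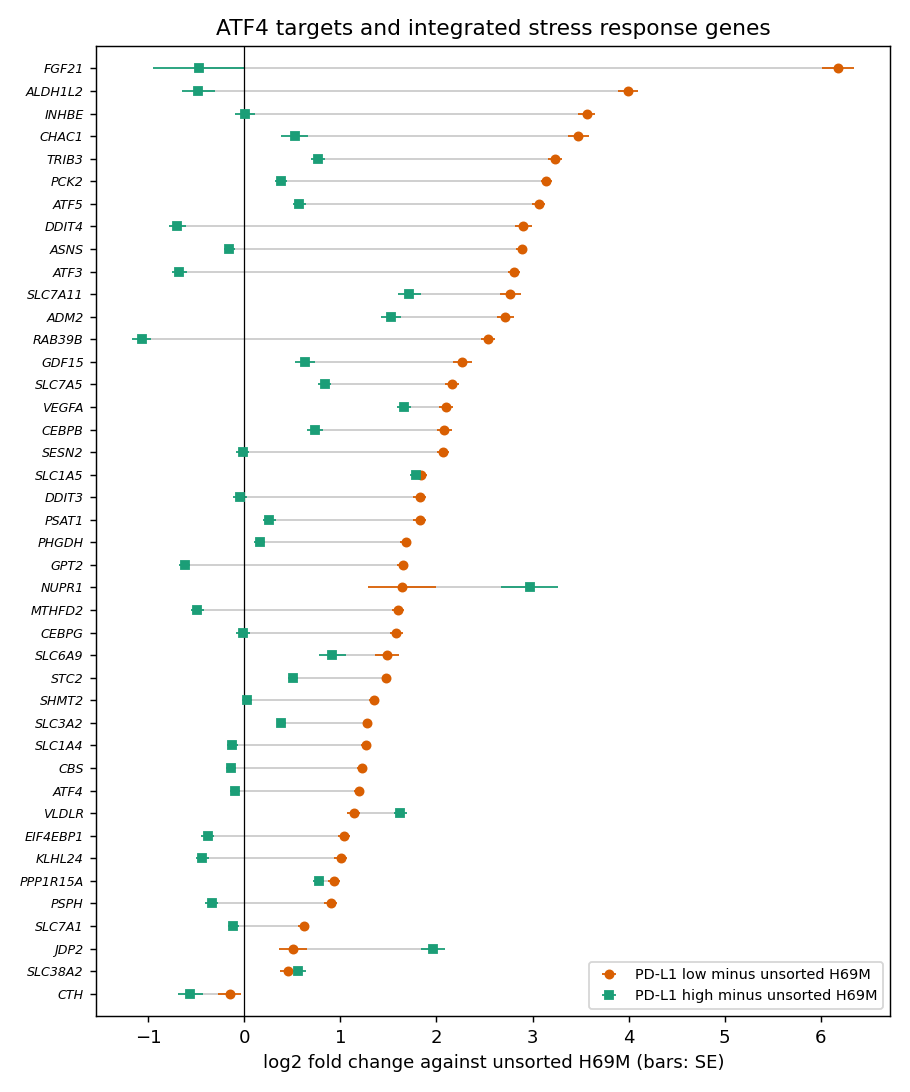
Log2 fold change (x axis, bars are SE) of the 42 tested integrated stress response genes in PD-L1 low minus unsorted H69M (circles) and in PD-L1 high minus unsorted H69M (squares), 3 libraries a group and the same unsorted libraries in both. Circles lie above 0 for 41 genes, while squares lie on both sides of it, with a median of 0.09.

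Levels in unsorted H69M can also be placed on a line between the sorted fractions, with 0% at the PD-L1 low mean and 100% at the PD-L1 high mean. Members that differed at least 2-fold between the fractions with adjusted p under 0.05 were used, as a description with no test. For 36 mesenchymal and non-neuroendocrine genes the unsorted level lay at a median of 23.8% (quartiles 20.8% to 28.2%). For 20 MHC class I genes the median was 19.2%, and for 25 neuroendocrine genes 32.4% (quartiles 14.9% to 51.8%). For 32 integrated stress response genes it was 99.2% (quartiles 92.7% to 106%). The choice of members left out the other tested genes of that list, among them SLC1A5 and VEGFA, which were above unsorted H69M in both fractions. A gene raised in PD-L1 low cells passed that choice mainly where PD-L1 high cells were not raised alike. The choice thus partly set the position of this list, and its median is not to be weighed against those of the other lists.

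Cytosolic tRNA synthetases, which load amino acids onto tRNAs and of which many are ATF4 targets, rose in 14 of 20 cases and fell in 4 (median 0.59). CARS, for cysteine, was at 156, 164 and 157 CPM in PD-L1 low cells, against 53.8, 53.1 and 51.1 CPM in unsorted H69M (1.60 ± 0.05, adjusted p = 1.50e-15). Those for glycine (GARS, 1.35 ± 0.06), alanine (AARS, 1.33 ± 0.05), serine (SARS, 1.20 ± 0.05), tyrosine (YARS, 1.15 ± 0.06) and methionine (MARS, 1.13 ± 0.05) also rose at least 2-fold. RARS, for arginine, fell by 0.67 on the log2 scale and FARSA, a subunit of the phenylalanine enzyme, by 0.62, and VARS and HARS fell as well. The core TGATGNAA was found in 7 of the 16 synthetase genes that had a promoter window (43.8%), among them AARS, CARS, GARS and MARS. That of CARS, whose current symbol is CARS1, is shown as the synthetase gene with the largest rise, at chr11:3057414-3057673 on the minus strand, with the match straddling the annotated start.
CARS: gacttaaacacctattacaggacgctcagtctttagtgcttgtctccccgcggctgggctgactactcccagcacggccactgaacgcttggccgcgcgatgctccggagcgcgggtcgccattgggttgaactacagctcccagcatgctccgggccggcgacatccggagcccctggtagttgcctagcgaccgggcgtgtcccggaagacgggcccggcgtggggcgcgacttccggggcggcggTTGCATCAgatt

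The ER branch did not move as a whole in the direction of the ATF4 targets. Of 22 ER chaperone and unfolded protein response genes 13 fell and 5 rose (median -0.34). In PD-L1 high minus the same unsorted libraries 17 of the 22 rose and 3 fell (median 0.40). HSPA5, the major ER chaperone BiP, was at 459, 418 and 448 CPM in PD-L1 low cells, against 973, 1091 and 1039 CPM in unsorted H69M, 2.34-fold lower (log2 fold change -1.23 ± 0.06, adjusted p = 1.04e-12). PDIA4, a disulfide isomerase, had a log2 fold change of -1.16 ± 0.05, CRELD2 of -0.95 ± 0.07, SDF2L1 of -0.83 ± 0.06 and HSP90B1, the ER form of HSP90, of -0.43 ± 0.05. In every one of these the PD-L1 low libraries were the lower ones. The genes that rose were HERPUD1, ERN1, ATF6, DNAJB9 and XBP1. HERPUD1, a component of ER-associated degradation, was at 169.5, 159 and 160.2 CPM in PD-L1 low cells, against 35.9, 41.4 and 38.4 CPM in unsorted H69M (2.08 ± 0.06). ERN1, the ER stress sensor IRE1, rose by 1.72 ± 0.08 and XBP1, the factor it splices, by 0.48 ± 0.05. Gene counts do not show splicing of XBP1. The ER stress element (CCAAT, any 9 bases, CCACG), searched on both strands, was found in 5 of the 21 listed genes with a window (23.8%) and in 0.0769% of all windows. HSPA5 is shown as the member with the element that fell most, at chr9:125241334-125241593 on the minus strand.
HSPA5: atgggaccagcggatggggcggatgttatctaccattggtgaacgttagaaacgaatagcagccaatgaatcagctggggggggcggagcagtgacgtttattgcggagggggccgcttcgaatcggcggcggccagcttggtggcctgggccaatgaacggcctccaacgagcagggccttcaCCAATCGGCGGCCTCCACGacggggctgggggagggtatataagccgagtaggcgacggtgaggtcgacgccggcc

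Heat shock proteins and their co-chaperones fell. Of 21 genes 20 fell and 1 rose (median -0.82), and the summed level was 7143 to 7186 CPM in the PD-L1 low fraction, against 14483 to 14883 CPM in unsorted H69M. It was 11319 to 11612 CPM in the PD-L1 high fraction and 12953 to 14746 CPM in H69. HSPA8, the constitutive HSP70, was at 779, 761 and 814 CPM in PD-L1 low cells, against 2377, 2352 and 2299 CPM in unsorted H69M (-1.58 ± 0.07, adjusted p = 6.15e-14). HSP90AA1, the inducible cytosolic HSP90, was at 2757, 2781 and 2749 CPM in PD-L1 low cells, against 6122, 6291 and 6101 CPM in unsorted H69M (-1.16 ± 0.05). The groups were well apart in both, with little spread within either. The co-chaperone DNAJA1 had -1.30 ± 0.07, HSPH1 -1.09 ± 0.05, DNAJB1 -0.97 ± 0.06 and CHORDC1 -0.96 ± 0.06. HSPA6, an HSP70 made only under strong stress, was the member that rose, at 1.10 ± 0.301 CPM in PD-L1 low cells, against 0.206 ± 0.0944 CPM in unsorted H69M. HSPA1A and HSPA1B, near-identical copies whose reads cannot be parted with certainty, both fell, though the groups overlapped for HSPA1B (-0.32 ± 0.13, adjusted p = 0.0334) and its call was lost in several alternatives, such as without unsorted replicate 1 (-0.27, adjusted p = 0.109 for HSPA1B). In the PD-L1 high fraction 10 of the 21 fell and 5 rose against the same unsorted libraries (median -0.12). The heat shock element (GAA, any 2 bases, TTC, any 2 bases, GAA), searched on both strands, was found in 8 of the 20 listed genes with a window (40%) and in 0.49% of all windows. HSPA8, the gene that fell most, holds it at 2 places, shown at chr11:123062127-123062386 on the minus strand.
HSPA8: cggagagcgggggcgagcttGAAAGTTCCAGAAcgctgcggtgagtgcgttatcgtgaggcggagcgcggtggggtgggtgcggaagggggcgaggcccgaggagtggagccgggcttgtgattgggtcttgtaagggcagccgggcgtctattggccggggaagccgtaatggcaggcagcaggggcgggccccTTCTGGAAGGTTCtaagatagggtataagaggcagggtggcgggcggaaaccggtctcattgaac

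**Figure D4:**
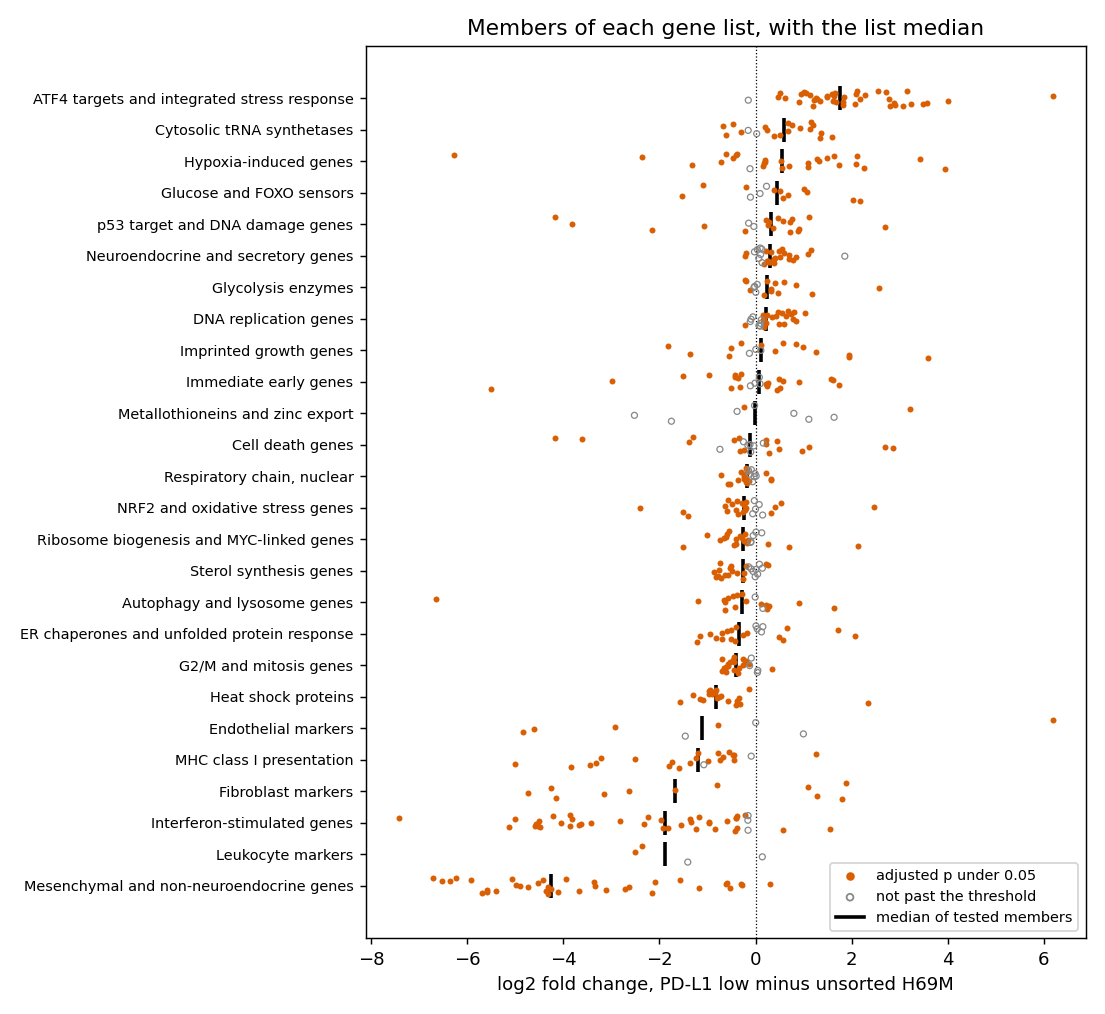
Log2 fold change of PD-L1 low minus unsorted H69M (x axis) for every tested member of the 26 lists that hold at least 4, with filled points past adjusted p 0.05 and a bar at the list median. The integrated stress response list has the highest median, 1.75, followed by the tRNA synthetases, while heat shock and G2/M genes lie mostly below 0 and the mesenchymal list is lowest at -4.26.

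The list of hypoxia-induced genes was split. Of 28 listed genes 19 rose and 8 fell (median 0.54), 12 of the rises and 3 of the falls being at least 2-fold. Those 3 falls were of EPAS1, EGLN3 and SLC2A3, the last with only 3 counts in the PD-L1 low and 20 in the unsorted libraries. EPAS1 and HIF1A, both counted among the falls, encode regulators of the response to low oxygen. CA9, carbonic anhydrase 9 and a standard hypoxia marker, was at 19.3, 15.02 and 17.1 CPM in PD-L1 low cells, against 1.30, 0.896 and 1.11 CPM in unsorted H69M (3.94 ± 0.19). NDRG1 was at 127, 98.5 and 119 CPM in PD-L1 low cells, against 25.6, 23.4 and 22.5 CPM in unsorted H69M (2.27 ± 0.08), and VEGFA, the angiogenic growth factor, was at 203, 202 and 187 CPM in PD-L1 low cells, against 47.1, 51.1 and 40.4 CPM in unsorted H69M (2.10 ± 0.07). PDK1 rose by 1.63 ± 0.08, PFKFB3, an activator of glycolysis, by 2.09 ± 0.07 and BNIP3, a mitophagy receptor, by 1.10 ± 0.07. By contrast EPAS1, which encodes HIF-2 alpha, was at 0.298 ± 0.252 CPM in PD-L1 low cells, against 20.5 ± 1.61 CPM in unsorted H69M (-6.27, or -6.96 without PD-L1 low replicate 3). HIF1A (-0.40 ± 0.06), the glucose carrier SLC2A1 (-0.47 ± 0.06), LOX, a collagen crosslinker (-0.62 ± 0.05), and EGLN3, a HIF hydroxylase (-1.33 ± 0.14), also fell. The PD-L1 high fraction exceeded unsorted H69M in these last 5, with PD-L1 high minus unsorted log2 fold changes of 2.13 ± 0.08 for EPAS1, 0.77 ± 0.06 for HIF1A, 0.91 ± 0.05 for SLC2A1, 1.63 ± 0.05 for LOX and 2.51 ± 0.09 for EGLN3. Over the whole list 18 genes rose and 5 fell in that comparison (median 0.72), which uses the same unsorted libraries. Members that rose in both comparisons were not counted.

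Of 17 glycolysis enzymes 10 rose and 3 fell (median 0.24). ALDOC, an aldolase of nervous tissue, was at 65.1, 49.4 and 63.4 CPM in PD-L1 low cells, against 9.03, 10.7 and 10.02 CPM in unsorted H69M (2.58 ± 0.12), and HK2, a hexokinase, rose by 1.18 ± 0.08 and PGK1 by 0.84 ± 0.06. LDHB and PKM were among those that fell, and GAPDH was at 4189 ± 224 CPM in PD-L1 low cells and 4246 ± 26.3 CPM in unsorted H69M (adjusted p = 0.790). Among glucose and FOXO sensors 8 of 14 rose and 3 fell. TXNIP, an inhibitor of glucose uptake, was at 519.5, 473 and 553 CPM in PD-L1 low cells, against 112, 118 and 112 CPM in unsorted H69M (2.18 ± 0.07, adjusted p = 5.79e-16). Its relative ARRDC4 was at 74.9, 76.4 and 73.05 CPM in PD-L1 low cells, against 17.2, 19.1 and 19.01 CPM in unsorted H69M (2.02 ± 0.07). IRS2, an insulin receptor substrate, rose by 1.06 ± 0.07, while FOXO1 fell by 1.53 on the log2 scale. TXNIP was also above unsorted H69M in the PD-L1 high fraction (1.26 ± 0.06), whereas ARRDC4 was below it there (-1.06 ± 0.09).

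Immediate early genes, which respond to many stimuli within minutes, did not move together. Of 25 tested 11 rose and 10 fell (median 0.08), against backgrounds of 32.6% higher and 33.0% lower. FOS was at 3.90, 3.72 and 3.18 CPM in PD-L1 low cells, against 2.34, 3.09 and 2.64 CPM in unsorted H69M (0.45 ± 0.15, adjusted p = 0.0161). The FOS call was lost without PD-L1 low replicate 1 (0.38, adjusted p = 0.0779) and without unsorted replicate 1 (0.36, adjusted p = 0.0771). JUN rose by 0.50 ± 0.05 and EGR1 was at 2.02 ± 0.0716 CPM in PD-L1 low cells and 2.14 ± 0.523 CPM in unsorted H69M (adjusted p = 0.623). KLF4 (1.62 ± 0.09) and KLF10 (1.56 ± 0.06), zinc finger factors, rose more, and NR4A1, an orphan nuclear receptor, rose by 0.90 ± 0.09. FOSL1, an AP-1 subunit of mesenchymal cells, was at 0.552 ± 0.219 CPM in PD-L1 low cells, against 24.1 ± 2.02 CPM in unsorted H69M, and MYC had a log2 fold change of -1.50 ± 0.12.

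The NRF2 and oxidative stress list had 4 genes higher and 16 lower of 25 (median -0.25). NQO1, a quinone reductase and NRF2 target, had a log2 fold change of -1.40 ± 0.08, ME1 of -2.40 ± 0.19 and the autophagy receptor SQSTM1 of -0.65 ± 0.05, while OSGIN1, an NRF2 target at a low level, was at 0.415 ± 0.114 CPM in PD-L1 low cells, against 0.0682 ± 0.0604 CPM in unsorted H69M (2.47 ± 0.63, adjusted p = 0.00205). NFE2L2, which encodes NRF2, rose by 0.54 ± 0.05 and TXNRD1 by 0.33 ± 0.05. HMOX1, heme oxygenase, was at 9.03 ± 0.437 CPM in PD-L1 low cells and 8.18 ± 0.618 CPM in unsorted H69M (adjusted p = 0.165). Of 20 p53 target and DNA damage genes 13 rose and 5 fell (median 0.32). CDKN1A, the cell cycle inhibitor p21, was at 249, 237 and 230.1 CPM in PD-L1 low cells, against 141, 151 and 146 CPM in unsorted H69M (0.71 ± 0.05), and GADD45A rose by 0.87 ± 0.06. Of the changes of at least 2-fold on this list 4 were falls and 2 were rises, the rises being BBC3 and PMAIP1 of the cell death list. The falls were those of the death receptors TNFRSF10B (-4.17 ± 0.18) and FAS (-3.82 ± 0.24), of GADD45B (-2.17 ± 0.18) and of TP53I3 (-1.08 ± 0.18). MDM2, a feedback target of p53, fell by 0.21 on the log2 scale, a call lost with library totals in place of TMM (-0.15, adjusted p = 0.0504). Of 9 tested metallothioneins and zinc genes 1, MT3, rose and 1, the zinc exporter SLC30A1, fell (-0.24 ± 0.10, adjusted p = 0.0300). The call of SLC30A1 was lost in 6 alternatives, among them library totals (-0.19, adjusted p = 0.0885) and leaving out unsorted replicate 3 (-0.21, adjusted p = 0.108).

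Among cell death genes 9 of 24 rose and 8 fell (median -0.11), near the shares over all tested genes (32.6% higher and 33.0% lower). The members that rose furthest were BH3-only activators of apoptosis. BBC3, which encodes PUMA, was at 38.9, 35.2 and 37.8 CPM in PD-L1 low cells, against 5.57, 6.07 and 5.74 CPM in unsorted H69M (2.69 ± 0.08, adjusted p = 5.80e-16). HRK, a BH3-only gene of neuronal cells, was at 3.59, 3.54 and 4.27 CPM in PD-L1 low cells, against 0.449, 0.448 and 0.612 CPM in unsorted H69M (2.86 ± 0.22). PMAIP1, which encodes NOXA, rose by 1.11 ± 0.08 and BCL2L11, which encodes BIM, by 0.96 ± 0.07. The death receptors TNFRSF10A and TNFRSF10B fell, the second to 0.898 ± 0.552 CPM in PD-L1 low cells, against 14.8 ± 0.354 CPM in unsorted H69M, and so did CASP8 (-1.38 ± 0.22) and MLKL (-1.31 ± 0.14). MCL1, a survival factor, fell by 0.32 on the log2 scale, and BCL2L1 did not pass the test (-0.10 ± 0.05, adjusted p = 0.0701), though it did with DESeq2 (-0.12, adjusted p = 0.0320).

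Cell cycle genes parted by phase. Of 28 DNA replication genes 20 rose and 1 fell (median 0.22), while of 24 G2/M and mitosis genes 19 fell and 1 rose (median -0.40). E2F1, a driver of S-phase genes, was at 376, 342 and 381 CPM in PD-L1 low cells, against 173, 187 and 177 CPM in unsorted H69M (1.03 ± 0.05), and CDT1 (0.83 ± 0.08), RRM2 (0.78 ± 0.05) and CCNE1 (0.74 ± 0.07) also rose. MCM5, a helicase subunit, was the replication gene that fell (-0.22 ± 0.05). CCNB1, the mitotic cyclin, was at 198, 211 and 191 CPM in PD-L1 low cells, against 317, 307 and 302 CPM in unsorted H69M (-0.62 ± 0.05), and PLK1 (-0.62 ± 0.07), BUB1 (-0.66 ± 0.05) and ASPM (-0.70 ± 0.10) fell alike. AURKB was the mitotic gene that rose (0.34 ± 0.05). All of these changes except that of E2F1 were under 2-fold. In PD-L1 high minus the same unsorted libraries 15 G2/M and mitosis genes fell and 2 rose (median -0.17). DNA replication genes there had 20 lower and 2 higher (median -0.30), unlike in the PD-L1 low comparison.

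Genes of growth and biosynthesis were mostly lower by small amounts. Of 24 ribosome biogenesis and MYC-linked genes 16 fell and 3 rose (median -0.27), with UTP20 at -1.01 ± 0.05 and RRP12 at -0.75 ± 0.06. MYCN, the MYC gene of this line, was at 1521, 1478 and 1454 CPM in PD-L1 low cells, against 917, 936 and 903 CPM in unsorted H69M (0.69 ± 0.04), and MYCL rose by 2.13 ± 0.19. Of 25 sterol synthesis genes 15 fell and 2 rose (median -0.27), with SQLE, squalene epoxidase, at -0.78 ± 0.05. Of 26 nuclear genes of the respiratory chain 16 fell and 3 rose (median -0.17), a count of falls that was 9 without PD-L1 low replicate 3, 10 without unsorted replicate 1 and 8 with library totals in place of TMM. CYC1, a cytochrome, had -0.72 ± 0.05. Of 19 tested autophagy and lysosome genes 6 rose and 11 fell. WIPI1, a phagophore protein, rose by 1.62 ± 0.08 and TFEB, the lysosomal master regulator, by 0.89 ± 0.08, while the cathepsin gene CTSB had -1.20 ± 0.05. The largest change on this list was the fall of CTSL, another cathepsin gene, at -6.65. It was -8.34 without PD-L1 low replicate 3 and -5.98 without PD-L1 low replicate 1. In PD-L1 high minus unsorted H69M, which uses the same unsorted libraries, 18 ribosome biogenesis genes fell and 1 rose (median -0.39). Sterol synthesis genes there had 14 lower and 3 higher (median -0.20), and respiratory chain genes 18 lower and 1 higher (median -0.26). Autophagy and lysosome genes went the other way there, with 13 higher and 1 lower (median 0.50).

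Lineage genes were counted in the same way. Of 37 mesenchymal and non-neuroendocrine genes 36 fell, and ZEB1 was the member that rose (0.30 ± 0.07). VIM was at 18.6, 18.5 and 33.9 CPM in PD-L1 low cells, against 465, 462 and 450 CPM in unsorted H69M (-4.32 ± 0.14), the third PD-L1 low library being the highest of its group. COL1A2, a fibrillar collagen, was at 189, 193 and 234 CPM in PD-L1 low cells, against 1257, 1192 and 1357 CPM in unsorted H69M (-2.63 ± 0.07). Of 30 neuroendocrine and secretory genes 20 rose and 2, UCHL1 and NKX2-1, fell, with a median of 0.31. STMN2, a neuronal microtubule regulator, was at 312, 294 and 312 CPM in PD-L1 low cells, against 139, 142 and 135 CPM in unsorted H69M (1.14 ± 0.05), and GRP, a neuropeptide, rose by 1.10 ± 0.07. INSM1 rose by 0.50 ± 0.05, CHGA by 0.18 ± 0.05 and SYP by 0.24 ± 0.07.

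Of 23 MHC class I genes 20 fell and 1 rose (median -1.20). B2M was at 169, 177 and 176 CPM in PD-L1 low cells, against 475, 441 and 433 CPM in unsorted H69M (-1.37 ± 0.05). HLA-B (-3.85 ± 0.16), HLA-C (-1.79 ± 0.06) and the peptide transporter TAP1 (-3.31 ± 0.14) fell further, though reads of the HLA genes can be shared between them. NLRC5, their transactivator, had -0.47 ± 0.14. The member that rose was IRF1, an interferon-response factor, at 33.6, 28.4 and 36.2 CPM in PD-L1 low cells, against 13.1, 13.9 and 13.7 CPM in unsorted H69M (1.26 ± 0.08), and it was at 44.02 ± 1.52 CPM in the PD-L1 high fraction. The ER chaperone CALR and isomerase PDIA3, which serve peptide loading, fell by 1.20 and 0.78 on the log2 scale. Of 42 tested interferon-stimulated genes 37 fell and 2, ISG20 and IRF7, rose (median -1.88). IFIH1, a sensor of double-stranded RNA, fell little (-0.60 ± 0.09) beside SAMD9L (-4.997 ± 0.21, or -5.82 without PD-L1 low replicate 3) and IFITM3 (-3.68 ± 0.15).

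Imprinted growth genes had 9 of 17 tested higher and 5 lower. H19, which was put on this list because it had stood out in these libraries, led them, and IGF2, its neighbour with the opposite imprint, was at 6.74, 6.37 and 6.15 CPM in PD-L1 low cells, against 1.39, 1.64 and 1.95 CPM in unsorted H69M (1.94 ± 0.14). CDKN1C, the cell cycle inhibitor p57, was at 21.8, 17.3 and 21.5 CPM in PD-L1 low cells, against 5.17, 5.03 and 5.47 CPM in unsorted H69M (1.94 ± 0.12). GRB10 rose by 0.99 ± 0.05 and IGFBP2, a binder of insulin-like growth factors, by 0.83 ± 0.06, whereas MEST fell by 0.51 on the log2 scale. H19 was at 10.9 ± 1.30 CPM in PD-L1 high cells and 10.9 ± 1.36 CPM in H69, so the PD-L1 low fraction stood above all other groups.

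Markers of other cell types were examined in the same fit. Of 11 tested fibroblast markers 7 fell and 4, namely FBLN1, PDGFRA, DCN and THY1, rose, and the summed level of the 12 listed was 639 to 739 CPM in the PD-L1 low fraction, against 3105 to 3347 CPM in unsorted H69M. Of 8 tested endothelial markers 4 fell and 1, EMCN, rose, with a summed level of 14.6 to 15.2 CPM in the PD-L1 low fraction, against 22.2 to 24.4 CPM in unsorted H69M. EMCN had 87 counts in the PD-L1 low libraries and 1 count in the unsorted ones, which is a ratio of 102.9 (95% interval 17.99 to 4112, counting error only), and its fitted log2 fold change was 6.18, or 7.92 without unsorted replicate 1. No list of another cell type had a higher summed level in the PD-L1 low libraries than in unsorted H69M. No mitochondrially encoded gene was among the genes analysed here.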

How the data were processed

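RNA libraries were made, per the labels' protocols, from 250 ng of total RNA with an exome capture kit and sequenced on a NextSeq 500. The table deposited by the authors holds whole-number read counts per gene for 12 libraries. Per the submitters' processing notes, the aligner was STAR 2.6.1 and the builds were hg19 and mm10. No source used here gives the counting program, the annotation or whether strand was used, so overlapping and antisense genes are uncertain. The H69EZ and mouse tables were not used.

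The 25435 genes were fitted with edgeR 4.0.16 (R 4.3.3), whose quasi-likelihood F-test was used with TMM scaling and 1 coefficient per group. filterByExpr with a minimum count of 10 left 15445 genes. The contrast was PD-L1 low minus unsorted H69M, with Benjamini-Hochberg adjustment over all tested genes and a threshold of 0.05. All 12 libraries shared the estimate of spread, with a common biological coefficient of variation of 0.0540. The SE is the log2 fold change over the square root of F. Fits were also run on simulated data in which few genes were changed. Far more genes differed here, so that run gives no error rate for this comparison. Replicate libraries of a group differed by more than sampling noise (chi-square per degree of freedom 2.28 to 8.44 between pairs), so none was merged.

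The comparison and the 27 gene lists were chosen with earlier results of these data known. Genes named were a fixed sort panel, the 10 largest rises and falls among genes at or above the median level with groups not overlapping, and up to 8 leading members of each list. Further members were named after their values were seen, chiefly of the integrated stress response, synthetase, MHC class I and neuroendocrine lists. Promoter windows are from RefSeq. The alternatives tried were other filters and scalings, DESeq2 1.42.0, limma-voom (limma 3.58.1), a fit of the compared groups alone, replicate numbers as blocks, a minimum of 2-fold, and leaving out single libraries. The integrated stress response list without RAB39B was added after seeing the data. Some genes of the sort panel and lists are not reported here.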

Additional observations from a re-analysis of the deposited data

How the results depend on the processing

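The count of genes that differed ran from 8647 to 10529 over the alternatives other than a 2-fold minimum, and from 9407 to 9722 with 1 library left out in turn, against 10134 in the report. The counts of higher and lower genes with 1 library left out ran from 4643 to 4781 and from 4764 to 4956. A 2-fold minimum left 2533 genes, 1309 higher and 1224 lower. The DESeq2 test called 9705 genes and limma-voom 10159. The replicate number as a block gave 9813 genes. The numbers were not taken to pair the samples, since same-numbered libraries did not deviate together (correlations of -0.07, -0.13 and 0.03), and 0 of the 3 PD-L1 low libraries correlated best with their own number. Library totals without TMM moved the median log2 fold change to 0.06 and made 56.2% of 10143 calls higher, against 49.7% in the report. Of 3760 log2 fold changes of 270 genes over the alternatives, 3723 kept direction and call, 31 lost the call, 2 gained it and 4 reversed. The lost calls were those of SDHD, SLC30A1, EGR3, HSPA1B, FOS and MDM2, and the gained ones those of BCL2L1. The reversals were of genes that did not pass the test. GAPDH had 0.0189 with a minimum count of 100, 0.0373 with library totals and -0.0684 to 0.0075 with 1 library left out, and EGR1 had -0.24 to 0.11 with 1 library left out. Of 781 list counts, 66 moved by over 1.5 times, most of them under the 2-fold minimum or in lists with few called members. The count of integrated stress response genes that rose was 41 with each library left out in turn and 40 with a minimum count of 100. Depth limits genes with few counts, such as EMCN.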

Other observations

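Families of genes that were not lists of their own were counted by symbol after their values were seen, so the counts are descriptions. Host genes of small nucleolar RNAs carry the guides for RNA modification in their introns. Of 16 tested genes with SNHG symbols 13 rose and 0 fell by edgeR's test in the PD-L1 low cells, with a median log2 fold change of 0.59 against 0.01 over all tested genes. SNHG1 was at 272 ± 6.57 CPM in PD-L1 low cells, against 63.5 ± 2.26 CPM in unsorted H69M (SD, n = 3 each, log2 fold change 2.10 ± 0.06, edgeR adjusted p = 6.84e-16). Of 4 other host genes looked at, which are not a full set, GAS5, ZFAS1 and EPB41L4A-AS1 rose and DANCR fell (-0.33 ± 0.07, adjusted p = 2.69e-04). GAS5 was at 131 ± 3.42 CPM in PD-L1 low cells, against 59.6 ± 5.64 CPM in unsorted H69M (1.14 ± 0.08), and ZFAS1 was at 65.7 ± 2.28 CPM in PD-L1 low cells, against 30.3 ± 0.311 CPM in unsorted H69M (1.12 ± 0.06). In the PD-L1 high fraction 0 of the 16 rose and 8 fell against the same unsorted libraries. Several of these genes overlap others, and the use of strand in counting is not given.

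Protein turnover and folding machines were lower. Of 45 tested proteasome subunits and regulators 40 fell and 0 rose in the PD-L1 low cells (median -0.43). PSMC1, an ATPase of the cap, was at 42.3 ± 0.846 CPM in PD-L1 low cells, against 74.8 ± 6.59 CPM in unsorted H69M (-0.82 ± 0.07), and PSMA4, a core subunit, had -0.64 ± 0.05. The immunoproteasome subunits PSMB8 (-1.25 ± 0.09) and PSMB9 (-3.22 ± 0.14) fell furthest. PSMB9 also stands on the list of MHC class I genes, so its fall was counted there as well. Of 9 subunits of the cytosolic chaperonin 8 fell and 1 rose (median -0.41). Of 76 mitochondrial ribosomal proteins 50 fell and 5 rose (median -0.24), whereas of 76 cytosolic ribosomal proteins 23 fell and 8 rose (median -0.06). In PD-L1 high minus the same unsorted libraries 41 mitochondrial ribosomal proteins fell and 5 rose, and 64 cytosolic ones fell and 2 rose. In that comparison 8 proteasome genes fell and 13 rose, and 5 chaperonin subunits fell and 1 rose.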
